A study of Vigna unguiculata subsp. sesquipedalis with 24 samples.

Results

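Asparagus bean is the vegetable subspecies of cowpea, grown for its long tender pods, and its landraces differ in how they handle water shortage. The comparison described here is between the lines B128 and B47 in the leaves of plants that had been kept irrigated. Its members are the 6 arrays whose source names give well-watered leaves, 3 of B128 and 3 of B47, out of 24 arrays in all. The labels call B128 isohydric like and B47 anisohydric like. In general an isohydric plant closes its stomata early and holds its leaf water steady, and an anisohydric plant lets its leaf water fall first, but the study's account of water use describes B47 as the more conservative line, so these terms are given only as the labels have them and the lines are called by name. Seedlings 16 days old, with 2 plants per pot, were divided into an irrigated and a droughted group, and the side leaflets of the first trifoliate leaf were taken on day 15. The other 18 arrays hold drought-stressed leaves and the roots of both treatments, again with 3 arrays of each line. The labels call the 3 arrays of a group biological replicates, material from the same pot was mixed, and which pot gave which array was not stated. Each line is a single landrace, so a line difference is a difference between 2 genotypes and not between isohydric and anisohydric plants at large.

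Leaves carry out photosynthesis with chlorophyll-binding antenna proteins that pass light energy to the photosystems, and they expand by loosening and rebuilding their cell walls. Stress reaches the nucleus through calcium sensors, the gas hormone ethylene, abscisic acid and transcription factors of the AP2/ERF and zinc finger families, many of which in Arabidopsis are switched on within a short time of touch, wounding, cold or drying. Landraces can also differ at single genes in every organ, for example where a gene is absent, silent or altered in sequence in one of them. The arrays read 29471 unigenes, which are assembled cowpea transcripts, and values are given below as normalized intensities on the log2 scale, where a difference of 1 is a fold change of 2. A level compares arrays for 1 unigene and cannot be set against that of another unigene, because probes differ in brightness. In leaf material taken whole, fewer cells of a type and less RNA per cell cannot be told apart.

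The 6 arrays carried leaf RNA. All 20 unigenes annotated as light-harvesting or photosystem proteins were brighter on each of the 6 arrays than on any array of well-watered roots, with a median difference of 5.71. Of 6 unigenes annotated as root transporters of iron, nitrate and zinc, 4 were dimmer on every leaf array than on every well-watered root array. The 3 B47 arrays correlated at 0.986 to 0.99 over all unigenes (Pearson), the 3 B128 arrays at 0.96 to 0.977, and arrays of different lines at 0.93 to 0.96. The median standard deviation of a unigene over 3 arrays was 0.27 in B128 and 0.17 in B47. B128 replicate 1 held the lowest of the 3 B128 values at 624 of the 938 unigenes higher in B47 and the highest at 515 of the 966 higher in B128, so counts without that array are given where they matter. The root transporters moved with it as well, since the mean of the 6 was 9.64 on that array and at most 11.58 on the other B128 arrays, against 10.66 to 10.86 in B47; their part in the results was not tested.

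The lines differed at 1904 unigenes, or 6.46% of those tested, which is the number that reached both a 2-fold change and a false discovery rate of 0.01 or less in limma's moderated test. Of these, 966 were higher in B128 (3.28%) and 938 were higher in B47 (3.18%), and the median difference of the called unigenes was 1.6 and -1.78 respectively. The 3 arrays of one line lay entirely above the 3 of the other at 1883 of the 1904 called unigenes, against 33.9% of all unigenes. Differences of at least 3 were found for 139 unigenes higher in B128 and 176 higher in B47, and of at least 5 for 48 and 34. Without B128 replicate 1 the counts were 755 and 715. With the spread estimated from the 6 arrays alone, in place of all 24, they were 243 and 278. Of the 1904 calls 50.7% were higher in B128, and this share became 62.9% when the arrays were scaled so that the yeast control entries were equal, a change that moved the median of all unigenes by 0.13.

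Descriptions were at hand for 2206 unigenes, 7.49% of the array, as the best Arabidopsis match listed in the study's gene tables. Those tables hold mostly unigenes that responded to drought on these same arrays, so the annotated unigenes are not a fair sample, and 6.26% of them were higher in B128 and 10.1% higher in B47. A group of 460 was listed for the response of roots alone, and there 6.09% were higher in B128 and 6.96% in B47. Its members are absent from the lists of leaf response, which came from these leaf arrays, so this group is not free of selection either. Counts within gene groups are read against these shares.

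**Figure D1:**
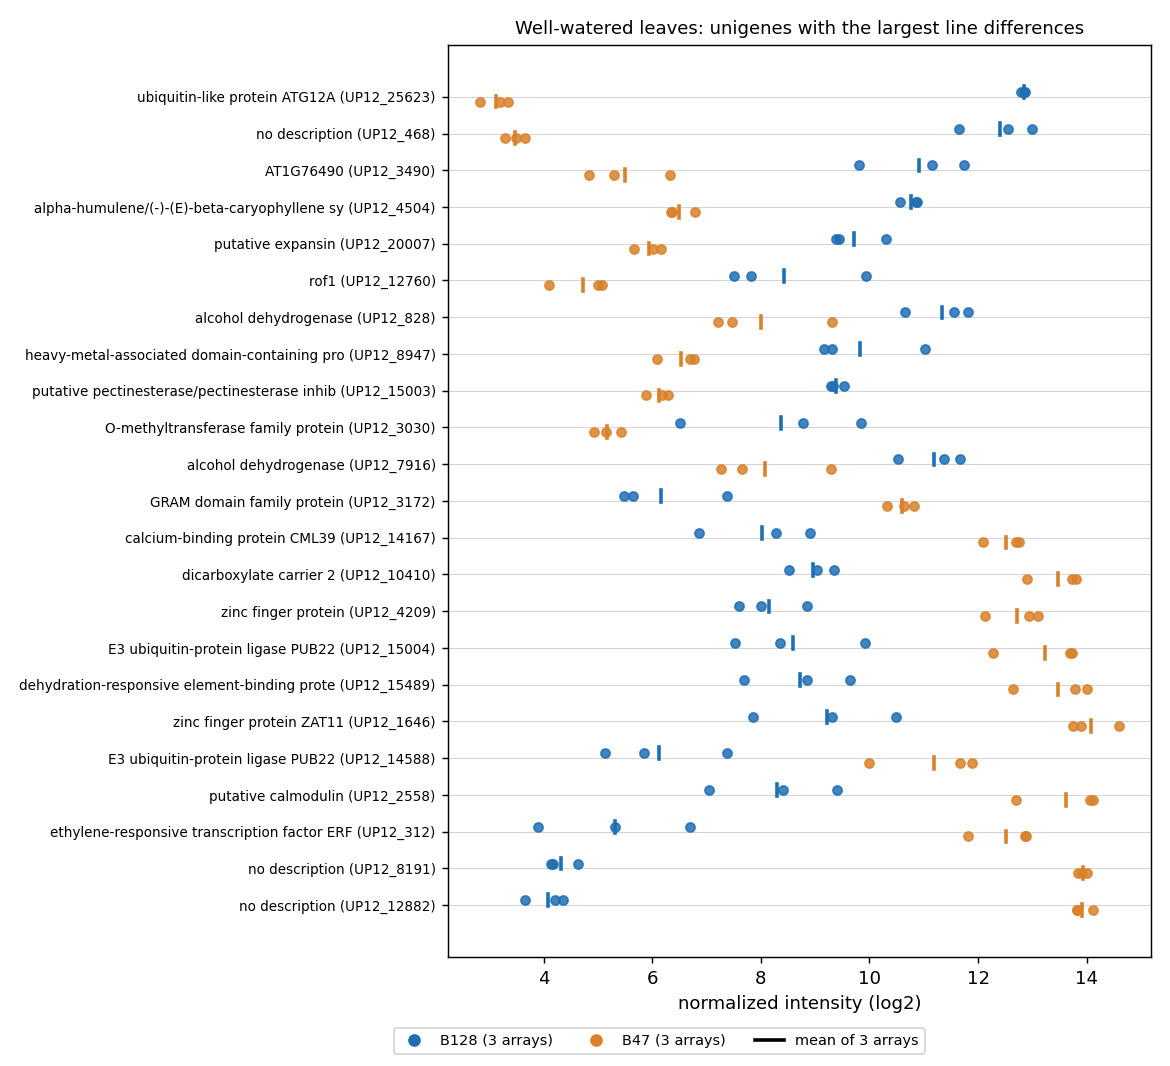
Normalized intensity (log2, horizontal axis) of the 23 unigenes with the largest line differences in well-watered leaves. Points are single arrays, blue for B128 and orange for B47, and short vertical lines are means of 3 arrays. In every row the 3 points of one line lie clear of the 3 of the other.

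Among the annotated unigenes with the largest excess in B47 were regulators that respond to stress. ERF017 (UP12_312), a transcription factor of the AP2/ERF family, read 12.87, 11.81 and 12.88 on the B47 arrays and 3.9, 6.7 and 5.31 on the B128 arrays. The groups were far apart, although the lowest B128 value was below the 5th percentile of its array, with a difference of -7.22 ± 0.47 (SE; adjusted p = 1.3e-09). A unigene described as a putative calmodulin (UP12_2558), a calcium sensor, read 14.12, 12.7 and 14.06 in B47 and 7.04, 9.41 and 8.41 in B128 (-5.34 ± 0.44, adjusted p = 5.3e-08). DREB1D (UP12_15489), a factor that binds the dehydration-responsive element in the promoters of cold and drought genes, read 14.0, 12.65 and 13.79 in B47 and 7.69, 9.64 and 8.84 in B128 (-4.76 ± 0.42). ZAT11 (UP12_1646), a zinc finger transcription factor, read 14.59, 13.75 and 13.89 in B47 and 7.85, 10.48 and 9.31 in B128 (-4.87 ± 0.48). In each of these the B128 arrays were more widely spread than the B47 arrays, and the lowest value was that of B128 replicate 1.

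PUB22, a ubiquitin ligase that marks proteins for breakdown and in Arabidopsis dampens drought and immune responses, was represented by a pair of unigenes. UP12_14588 read 11.89, 10.0 and 11.67 in B47 and 5.12, 5.84 and 7.38 in B128, and UP12_15004 differed by -4.64 ± 0.48 beside -5.07 ± 0.49 for the first. CML39 (UP12_14167), a calmodulin-like calcium sensor, read 12.75, 12.09 and 12.7 in B47 and 6.86, 8.27 and 8.91 in B128, a difference of -4.5 ± 0.42. The other unigenes of this rank were a zinc finger protein (UP12_4209, -4.57), dicarboxylate carrier 2 (UP12_10410, -4.52), which moves organic acids across the inner mitochondrial membrane, and a GRAM domain protein (UP12_3172, -4.43). All had adjusted p-values of at most 1.1e-06. Unigenes with the same description may read the same transcript, so they are not independent evidence.

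The 2 largest excesses in B47 over all unigenes had no description. UP12_12882 read 13.82, 13.83 and 14.12 in B47 and 4.2, 3.66 and 4.35 in B128 (-9.85 ± 1.54, adjusted p = 0.00014). UP12_8191 read 13.85, 13.92 and 14.01 on the B47 arrays and 4.16, 4.14 and 4.62 on the B128 arrays (-9.62 ± 1.3). The lower values are close to the bottom of the scale, since the 5th percentile of an array lay between 4.29 and 4.37, so these unigenes read as present in one line and near the floor in the other.

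The largest excess in B128 was that of ATG12A (UP12_25623), a ubiquitin-like protein that is joined to another protein when autophagosomes form. It read 12.8, 12.85 and 12.87 in B128 and 3.19, 2.83 and 3.33 in B47, a difference of 9.72 ± 0.29 (adjusted p = 1.2e-14). The next, UP12_468, had no description and read 13.0, 12.55 and 11.65 in B128 and 3.29, 3.65 and 3.48 in B47 (8.93 ± 0.34). A unigene matched to the Arabidopsis locus AT1G76490 (UP12_3490) read 9.81, 11.16 and 11.74 in B128 and 4.83, 6.33 and 5.3 in B47 (5.42 ± 0.39). The first 2 of these sat at the floor of the array in B47. The third was low there too, though above the 5th percentile of 4.29 to 4.37 on each B47 array.

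Enzymes of leaf volatiles and fermentation, and proteins of the growing wall, followed. A synthase of the sesquiterpenes humulene and caryophyllene (UP12_4504), volatile compounds that plants release from leaves, read 10.86, 10.87 and 10.56 in B128 and 6.36, 6.35 and 6.78 in B47 (4.26 ± 0.24, adjusted p = 1.6e-10). A pair of unigenes described as alcohol dehydrogenase, the last enzyme of ethanol fermentation, gave 3.35 ± 0.42 (UP12_828) and 3.12 ± 0.39 (UP12_7916). The first of the pair read 10.66, 11.82 and 11.55 in B128 and 7.21, 9.31 and 7.47 in B47, with B47 replicate 2 nearest to B128. The immunophilin rof1 (UP12_12760), a peptidyl-prolyl isomerase that in Arabidopsis works in heat tolerance, differed by 3.7 ± 0.59, a heavy-metal-associated domain protein (UP12_8947) by 3.31 ± 0.42 and a pectinesterase with an inhibitor domain (UP12_15003) by 3.27 ± 0.35. An O-methyltransferase (UP12_3030) differed by 3.21 ± 0.72 (adjusted p = 0.004), and this call was lost when any array but B128 replicate 1 was left out, with adjusted p-values of 0.011 to 0.024.

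**Figure D2:**
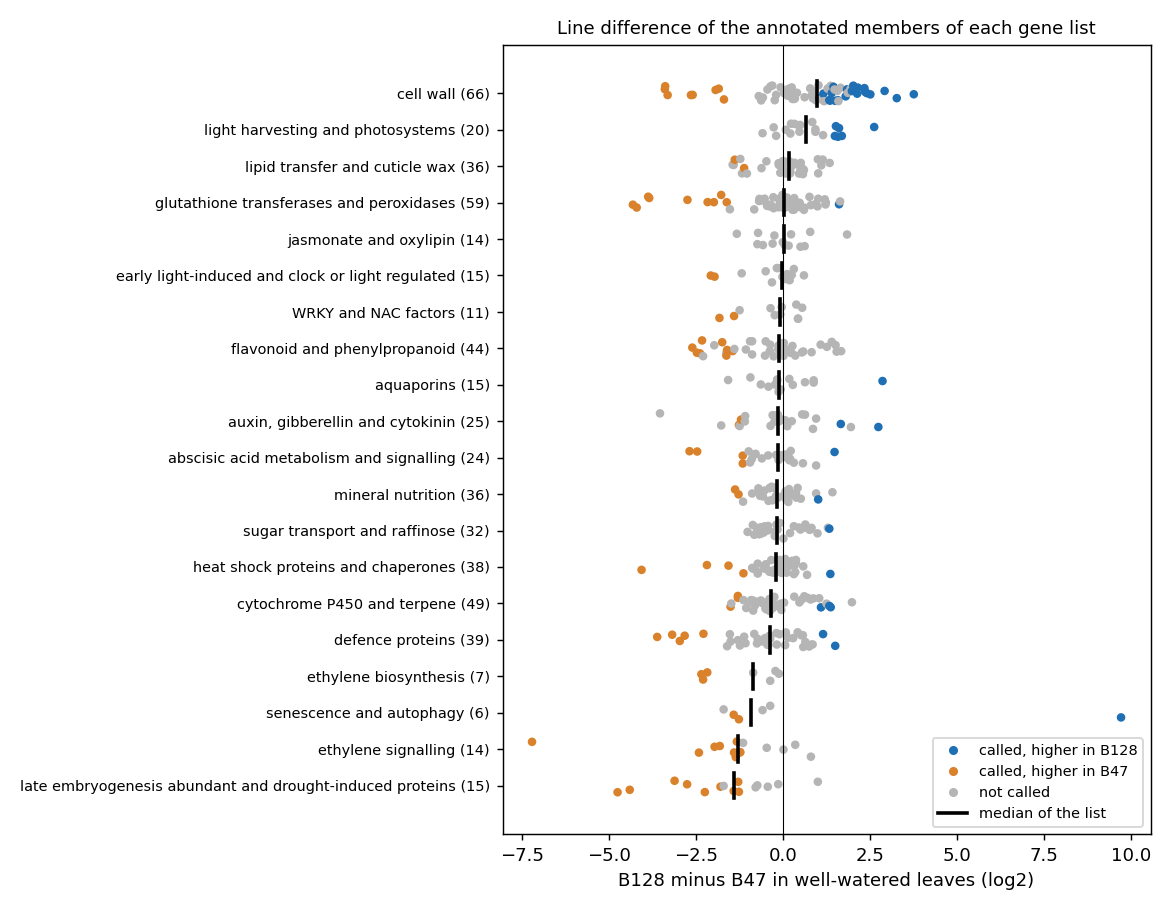
Line difference in well-watered leaves (B128 minus B47, log2, horizontal axis) of each annotated member of 20 gene lists, ordered by the list's median (black line), with the number of members in parentheses. Blue and orange points passed the test. The ethylene signalling and late embryogenesis lists lie mostly to the left of 0, and the light-harvesting and cell wall lists mostly to the right.

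A part of the ethylene genes was higher in B47. Of 7 unigenes of ethylene biosynthesis, the 3 described as 1-aminocyclopropane-1-carboxylate synthase, the enzyme that sets the rate of ethylene production, passed the test in that direction and the other 4 did not pass. UP12_3593 read 11.76, 10.87 and 11.89 in B47 and 8.47, 9.5 and 9.5 in B128, a difference of -2.35 ± 0.29 (adjusted p = 8.4e-06). The count was 0 with the spread of the 6 arrays alone. The remaining pair differed by -2.3 (UP12_29720, described as ACC synthase 6) and -2.18 (UP12_19796). Among 14 unigenes of ethylene signalling, 9 were higher in B47 and 5 did not pass, and the list's median difference was -1.29 against 0.03 for all unigenes and 0 for the annotated ones. After ERF017 the largest were ERF1B (UP12_15642, -2.42 ± 0.47) and ERF5 (UP12_3409, -1.97 ± 0.19), both of which bind the GCC box of ethylene-responsive promoters. The mean over the list was 11.4 to 11.65 on the B47 arrays and 9.88 to 10.25 on the B128 arrays, so the lines did not overlap. With the spread of the 6 arrays alone 4 of the 14 passed. In the group listed for roots alone were 1 of the 7 and 1 of the 14, and neither passed. Most members of both lists were thus chosen by the study for a response to drought on arrays that include these. How far that choice shapes the excess in B47 was not tested.

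The list of proteins that protect drying cells, or are named for their response to drought, had 15 members. Of these, 9 were higher in B47 and 6 did not pass, with a median difference of -1.42. Behind DREB1D came a senescence/dehydration-associated protein (UP12_28940), which read 11.06, 9.34 and 10.45 in B47 and 5.73, 6.69 and 5.21 in B128 (-4.41 ± 0.37), and a late embryogenesis abundant hydroxyproline-rich glycoprotein (UP12_8266), which read 13.98, 13.16 and 13.89 on the B47 arrays and 10.08, 11.11 and 10.5 on the B128 arrays (-3.12 ± 0.26). The other 6 called members, among them ERD15 and SAG21, differed by -1.27 to -2.76. The list mean was 10.98 to 11.47 on the B47 arrays and 8.96 to 9.95 on the B128 arrays. Most of these unigenes were chosen by the study for their response to drought on these arrays, and none of them came from the group listed for roots alone. With the spread of the 6 arrays alone 5 of the 15 passed.

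The groups of calcium sensors, zinc finger proteins and U-box ubiquitin ligases were set up after their values had been seen and are given as a description. Calcium sensors numbered 15, of which 6 were higher in B47 and 9 did not pass; CML40 (UP12_3527) differed by -4.3. Zinc finger proteins numbered 36, of which 10 were higher in B47. Of 7 U-box ubiquitin ligases, the family of PUB22, 6 were higher in B47, from -1.29 to -5.07. Among WRKY and NAC transcription factors, 2 of 11 were higher in B47, WRKY17 (UP12_25220, -1.83 ± 0.2) and a NAC domain protein (UP12_17650, -1.41 ± 0.23).

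Among glutathione transferases, enzymes that attach glutathione to toxic compounds, a few unigenes were far higher in B47. Of 59 unigenes of glutathione transferases and peroxidases, 9 were higher in B47, 1 was higher in B128 and 49 did not pass, and the list's median was 0.03. In drought-stressed leaves 4 of the 59 were higher in B47 and 1 in B128. The 3 largest all carried the description glutathione S-transferase PHI 9. UP12_2664 read 10.57, 11.43 and 11.33 in B47 and 5.59, 7.78 and 7.0 in B128 (-4.32 ± 0.42, adjusted p = 4.1e-07), UP12_17903 differed by -4.21 ± 0.38 and UP12_1325 by -3.88 ± 0.45. In drought-stressed leaves the line difference of UP12_2664 was -0.02 ± 0.42, and the difference between the 2 line differences was -4.3 ± 0.59 (adjusted p = 0.0001). The levels there were 13.29, 13.78 and 12.39 in B47 and 12.65, 13.59 and 13.17 in B128, so both lines read above either line's irrigated leaves.

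Defence proteins and chaperones both stayed near the shares of all annotated unigenes, 10.1% higher in B47 and 6.26% in B128. Of 39 defence proteins 5 were higher in B47 and 2 in B128, led by a pair described as HS1 PRO-1 2-like protein (UP12_27713, -3.62 ± 0.29; UP12_23989, -3.19 ± 0.25), relatives of a beet gene for nematode resistance, and by NDR1/HIN1-like 25 (UP12_337, -2.97 ± 0.54). Of 38 heat shock proteins and chaperones 4 were higher in B47, among them the chloroplast co-chaperone dnaJ 20 (UP12_979), which read 11.83, 11.14 and 12.74 in B47 and 6.58, 8.73 and 8.19 in B128 (-4.07 ± 0.52), a DnaJ-like protein (UP12_396, -2.19 ± 0.35) and heat shock factor A3 (UP12_19384, -1.57 ± 0.26), and 1 was higher in B128.

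In the abscisic acid list of 24 unigenes, 4 were higher in B47 and 1 in B128, and the median was -0.16. The largest were protein phosphatases of type 2C, a family whose best-known members switch the abscisic acid signal off. Phosphatase 2C 25 (UP12_15751) read 12.79, 12.04 and 12.42 in B47 and 9.15, 10.21 and 9.85 in B128 (-2.69 ± 0.23), phosphatase 2C 2 (UP12_2940) differed by -2.47 ± 0.22, and phosphatase 2C 18 (UP12_19143) was the one higher in B128 (1.48 ± 0.25). A pair of phosphatases known to bind the hormone's receptors did not pass, with 0.57 ± 0.28 for ABI1 (UP12_8966, adjusted p = 0.16), and -0.2 ± 0.2 for PP2CA (UP12_1741, adjusted p = 0.52). A pair described as 9-cis-epoxycarotenoid dioxygenase, the enzyme that commits carotenoids to abscisic acid, differed by -1.16 each and passed.

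Of 44 unigenes of flavonoid and phenylpropanoid synthesis, 8 were higher in B47 and 36 did not pass, with a median of -0.13, and the calls depended on single arrays. Those called included chalcone synthase, the entry enzyme of the pathway. UP12_108 read 8.13, 7.66 and 7.93 in B47 and 4.51, 5.08 and 6.7 in B128 (-2.48 ± 0.51, adjusted p = 0.0019). The next were UP12_25922 (-2.39 ± 0.54, adjusted p = 0.004) and UP12_11116 (-2.33 ± 0.6, adjusted p = 0.0096). B128 replicate 1 was the lowest array in each, and all 3 lost their calls without it (adjusted p = 0.016, 0.032 and 0.07). The list's count was 2 without it, 4 without B128 replicate 2, 3 without B47 replicate 1 and 3 without B47 replicate 3. A pair of B-box zinc finger proteins (UP12_22265, -2.08; UP12_5827, -1.97), a family that works in light signalling, made up the 2 of 15 light- and clock-regulated unigenes that passed, and these too were lost without B128 replicate 1, at adjusted p = 0.047 and 0.056, and without any of the 3 B47 arrays.

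Of 20 unigenes of light harvesting and the photosystems, 6 were higher in B128 and 14 did not pass. The difference was positive at 17 of the 20, and the 3 B128 arrays lay above the 3 B47 arrays at 15 and below them at 1, where 33.9% of all unigenes had no overlap in either direction. The list's median difference was 0.67, against 0 for the annotated unigenes. None of the 20 came from the group listed for roots alone. Most were thus chosen by the study for a response to drought on arrays that include these. How far that choice shapes the excess in B128 was not tested. Chlorophyll a-b binding protein 4 (UP12_9231), an antenna protein of photosystem I, read 12.81, 12.8 and 11.88 in B128 and 9.7, 10.62 and 9.31 in B47 (2.62 ± 0.33, adjusted p = 1.4e-05). The others named were chlorophyll a-b binding protein 6 (UP12_8990, 1.69 ± 0.27) and a light-harvesting complex interacting protein (UP12_24012, 1.61 ± 0.25). The list mean was 12.05 to 12.54 on the B128 arrays and 11.38 to 11.65 on the B47 arrays, while in drought-stressed leaves it was 9.43 to 9.81 in B128 and 9.5 to 9.97 in B47. The count was 5 without B128 replicate 1 and 1 with the spread of the 6 arrays alone.

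Cell wall genes gave the largest number of calls in B128 of any list. Of 66 members, 21 were higher in B128 and 8 in B47, and the median difference was 0.98, with 49 of 66 positive. Those higher in B128 were led by an expansin (UP12_20007), a protein that loosens the wall so that cells can expand, which read 9.39, 9.43 and 10.3 in B128 and 5.66, 6.15 and 6.02 in B47 (3.76 ± 0.43, adjusted p = 3.5e-06). The rest were pectinesterases, pectate lyases and polygalacturonases that act on pectin, fasciclin-like arabinogalactan proteins, trichome birefringence-like proteins, a xyloglucan endotransglucosylase and cellulose synthase A4, with differences of 1.04 to 3.27. Those higher in B47 were 3 unigenes of EXORDIUM, a protein of brassinosteroid-promoted growth (UP12_15448, -3.4 ± 0.42; UP12_13531, -3.39 ± 0.41), the galacturonosyltransferase-like 9 pair, the xyloglucan hydrolase XTR-6 pair and expansin-like B1.

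Some of the same wall genes were listed for roots alone, a group that leaves out those listed for a leaf response and is not free of selection either. They are part of the counts above and were read on the same 6 arrays, so they are not a separate test. Of the 22 wall genes listed for roots alone, 8 were higher in B128 and 1 in B47, against 6.09% and 6.96% of all 460 such unigenes. Leaving out 1 array of the 6 gave between 14 and 21 wall genes higher in B128, and 14 was the count without B47 replicate 1. With the spread of the 6 arrays alone 4 were higher in B128 and 1 in B47. The list mean was 9.37 to 9.67 on the B128 arrays and 8.78 to 8.97 on the B47 arrays. In well-watered roots it was 10.96 to 11.2 and 11.02 to 11.49, with 1 member higher in B128 and 2 in B47.

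**Figure D3:**
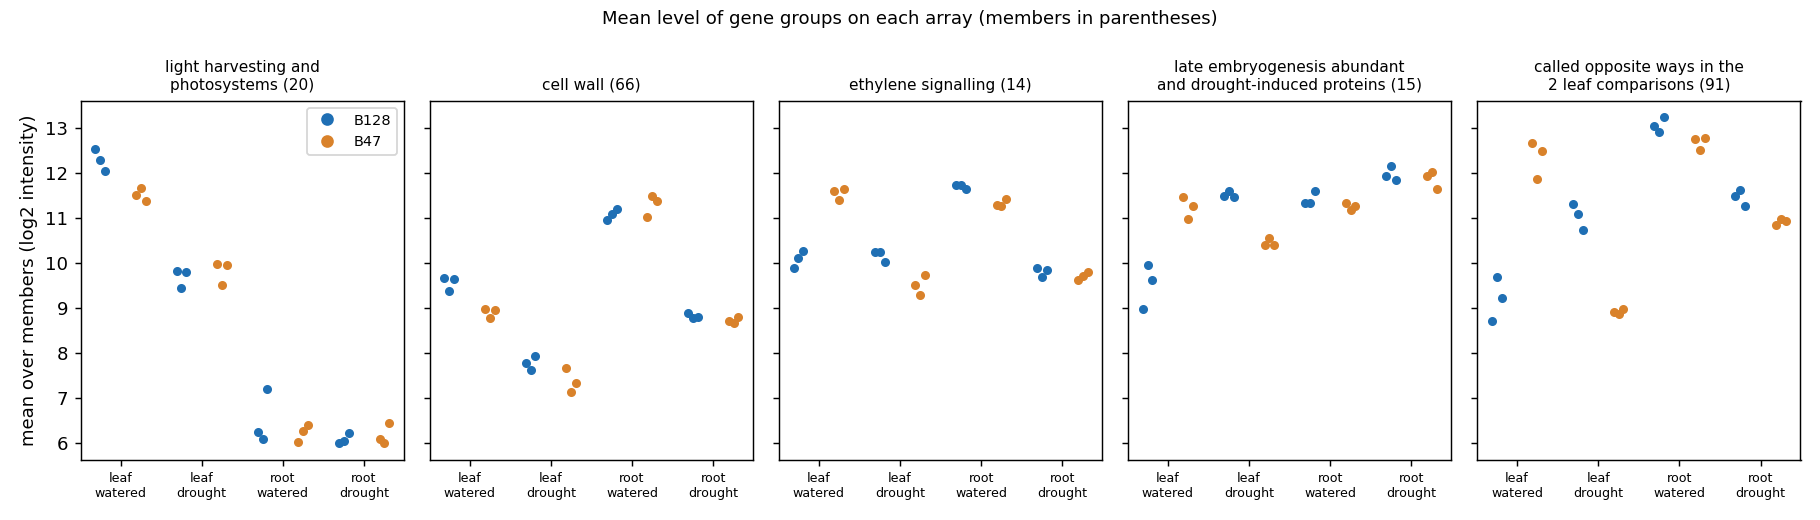
Mean normalized intensity (log2, vertical axis) over the members of 4 gene lists and of the 91 unigenes called in opposite directions in the 2 leaf comparisons, on each of the 24 arrays, with blue points for B128 and orange points for B47. In well-watered leaves the lines do not overlap in any panel, B128 lying above in the first 2 panels and below in the other 3. Other lists are not shown, and in some the lines overlapped, such as the aquaporins (10.92 to 11.01 in B128 and 10.58 to 11.17 in B47). The last panel was chosen by the values it shows.

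Among hormone genes of growth, 2 of 25 were higher in each line. CRE1b (UP12_1490), a receptor kinase for cytokinin, read 11.05, 10.96 and 10.4 in B128 and 7.97, 8.48 and 7.73 in B47 (2.74 ± 0.25, adjusted p = 2e-07). A SAUR-like auxin-responsive protein (UP12_19038) was higher in B128 (1.66 ± 0.29), and IAA16 (UP12_22211), a repressor of auxin responses, was higher in B47 (-1.27 ± 0.3), a call lost when any array but B47 replicate 2 was left out. None of the 3 passed in drought-stressed leaves or in well-watered roots.

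Of 15 unigenes described as aquaporins, the water channels of plant membranes, 1 passed. The study counted more aquaporins on its array than had a description here, so the count speaks only for these 15. It was the delta tonoplast intrinsic protein (UP12_10083), a channel of the vacuole membrane, which read 8.02, 7.16 and 7.5 in B128 and 3.57, 6.16 and 4.37 in B47 (2.86 ± 0.58, adjusted p = 0.0018). B47 replicate 2 lay nearest to B128, and the adjusted p was 0.012 without B128 replicate 1, 0.014 without B47 replicate 1 and 0.011 without B47 replicate 3, just outside the threshold. The other 14 differed by -1.58 to 0.88, and the list's median was -0.13.

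The remaining lists gave few calls for their size. In mineral nutrition, a pair of nitrate transporter 1:2 unigenes was higher in B47 (UP12_29547, -1.38 ± 0.25; UP12_29548, -1.28 ± 0.24) and a molybdenum cofactor gene of nitrate reductase was higher in B128 (UP12_28595, 1.01 ± 0.15), with the other 33 of 36 not passing. Among 49 cytochrome P450 and terpene genes 3 passed in each direction, and those named were a putative cytochrome P450 (UP12_2147, -1.51 ± 0.26), CYP83B1 (UP12_3377, 1.33 ± 0.32) and CYP81D8 (UP12_23262, 1.37 ± 0.34). Of 32 sugar genes 1 passed, galactinol synthase 2 (UP12_20374, 1.33 ± 0.34), the first enzyme of raffinose synthesis, at the threshold of 0.01.

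In the lipid and wax list 2 of 36 were higher in B47, 3-ketoacyl-CoA synthase 11 (UP12_17670, -1.39 ± 0.23), which lengthens fatty acids, and lipid-transfer protein 4 (UP12_7902, -1.12 ± 0.26). The second was near the floor of the array in both lines, with 4.33, 3.7 and 4.19 in B128 and 4.75, 5.89 and 4.93 in B47, and its line difference in drought-stressed leaves was -9.59 ± 0.26. Of 6 senescence and autophagy genes, SAG21 (UP12_376, -1.42 ± 0.28) and a senescence/dehydration related protein (UP12_1409, -1.27 ± 0.25) were higher in B47, while ATG12A was higher in B128. None of 14 jasmonate and oxylipin genes passed in limma, at a median of 0.02. An unadjusted limma p below 0.05 was found for 5 of the 14, a share near that of all unigenes (9539 of 29471).

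Whether the line difference of irrigated leaves was also seen elsewhere was asked of the other arrays. Their levels do not enter that difference, but all the comparisons share the same estimate of spread for a unigene. A unigene of low spread is thus more easily called in each of them, so the calls are not independent. How much of the overlap comes from this was not tested. In drought-stressed leaves, where 1.63% of all unigenes were higher in B128 and 1.56% higher in B47, 22.6% of the 966 unigenes higher in B128 and 19% of the 938 higher in B47 were called the same way. In well-watered roots, with 1.2% and 1.1% called over all unigenes (2.3% in either direction), the shares were 15.2% and 14.6%, and in drought-stressed roots, with 1.01% and 1.08% (2.09% in either direction), they were 14.4% and 15.5%. Counted from the other side, 45.5% of the unigenes higher in B128 in drought-stressed leaves and 41.6% of those in well-watered roots were also higher in B128 in irrigated leaves. Leaves and roots of a plant may come from 1 pot, and whether they do was not stated.

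The larger the difference in irrigated leaves, the more often it was called in the other arrays. Part of this rise is built into the rule, since a small difference more easily misses the 2-fold change or the false discovery rate. How large that part is was not tested. Among unigenes higher in B128 by between 1 and 2, 12.8% were called the same way in drought-stressed leaves and 6.55% in well-watered roots. Among the 48 higher by at least 5, the shares were 75% and 79.2%, and 34 of the 48 were called the same way in all 3 other comparisons. For B47 the shares rose from 13.1% and 8.27% to 67.6% and 82.4% of 34 unigenes. In these last classes the median level of the lower line was 4.48 and 4.28, near the floor of the array, and that of the higher line was 10.84 and 11.43.

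In all 4 comparisons 102 unigenes were higher in B128 and 92 higher in B47, of which 1 and 4 had a description. The mean level over the 102 lay between 9.42 and 10.2 on every B128 array and between 5.89 and 6.31 on every B47 array. More unigenes were called in irrigated leaves alone, although lack of a call elsewhere does not show that the line difference was absent. Of the unigenes higher in B128 in irrigated leaves 697 were called in no other comparison, with a median difference of 1.45 there and 0.31 in drought-stressed leaves. The same held for 604 of the unigenes higher in B47, with medians of -1.54 and -0.03. By sign alone, 79.8% of the 966 were higher in B128 in drought-stressed leaves, against 50.4% of all unigenes. In well-watered roots the shares were 65.7% and 46.7%. Of the 938, 58.5% were higher in B47 in drought-stressed leaves, against 49.6% of all unigenes. In well-watered roots these shares were 47.4% and 53.3%.

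**Figure D4:**
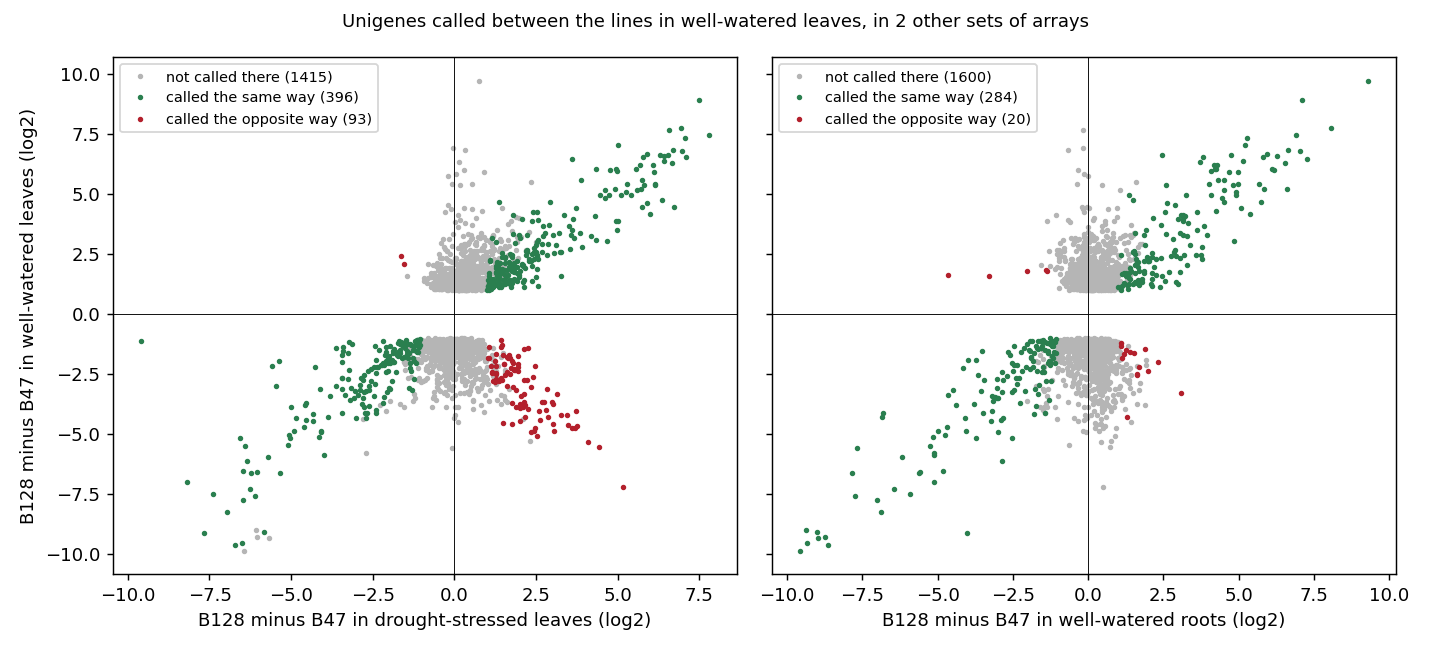
Line difference (B128 minus B47, log2) of the 1904 unigenes called in well-watered leaves, on the vertical axis, against the line difference in drought-stressed leaves (left) and in well-watered roots (right). Green points were called the same way there (396 and 284), red points the opposite way (93 and 20) and grey points were not called. The red points of the left panel form an arm at the lower right.

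A test of the difference itself called 714 unigenes, or 2.42%, between well-watered and drought-stressed leaves, and 1119, or 3.8%, between well-watered leaves and well-watered roots. The first count was 456 without replicate 3 of the irrigated B47 leaves, 640 without replicate 3 of the drought-stressed B47 leaves and 1486 with array weights. In 91 unigenes higher in B47 in irrigated leaves the sign turned, and they were called higher in B128 in drought-stressed leaves. The reverse happened for 2, UP12_2138 and UP12_21132, neither with a description. Without B47 replicate 3 of the drought-stressed leaves, an array described below, the 91 became 75. ERF017 headed the group, at 10.81, 9.92 and 9.5 in drought-stressed B128 leaves and 4.95, 4.88 and 4.88 in drought-stressed B47 leaves (5.17 ± 0.47), so the 2 line differences were 12.39 ± 0.66 apart (adjusted p = 5.4e-10).

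Of the 91 unigenes 57 had a description, against 7.49% of the array. Descriptions were held mostly for unigenes that responded to drought, so the described part is not a fair sample of the 91. Much of the signalling described above was in that part. All 3 ACC synthase unigenes, both PUB22 unigenes, ZAT11, DREB1D, the putative calmodulin and CML40 were among them, as were ERF5, WRKY17, ERD15, the late embryogenesis protein UP12_8266 and 3 unigenes of CCR4-associated factor 1, which shortens the tails of messenger RNAs. CML39 was not, since its line difference in drought-stressed leaves was 0.12 ± 0.42, nor were the glutathione transferases PHI 9. The mean over the 91 was 8.72 to 9.68 in irrigated B128 leaves, 11.86 to 12.67 in irrigated B47 leaves, 10.74 to 11.31 in droughted B128 leaves and 8.86 to 8.98 in droughted B47 leaves. In well-watered roots it was high in both lines, at 12.9 to 13.25 in B128 and 12.5 to 12.77 in B47. These levels describe the values by which the unigenes were chosen in the leaves, and carry no test.

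Several of the unigenes higher in B128 in irrigated leaves had no called line difference in drought-stressed leaves. Alcohol dehydrogenase UP12_828 read 14.39, 14.49 and 14.19 in drought-stressed B128 leaves and 14.38, 14.57 and 14.27 in drought-stressed B47 leaves, and its 2 line differences were 3.4 ± 0.59 apart (adjusted p = 0.0014). Chlorophyll a-b binding protein 4 read 10.31, 9.69 and 10.18 in B128 and 10.64, 9.71 and 10.52 in B47 under drought, where the lines overlapped. The caryophyllene synthase remained higher in B128 (2.54 ± 0.24, adjusted p = 5.1e-07), though by less than in irrigated leaves (the difference between them was 1.73 ± 0.34, adjusted p = 0.004), and in well-watered roots it was near the floor in both lines.

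**Figure D5:**
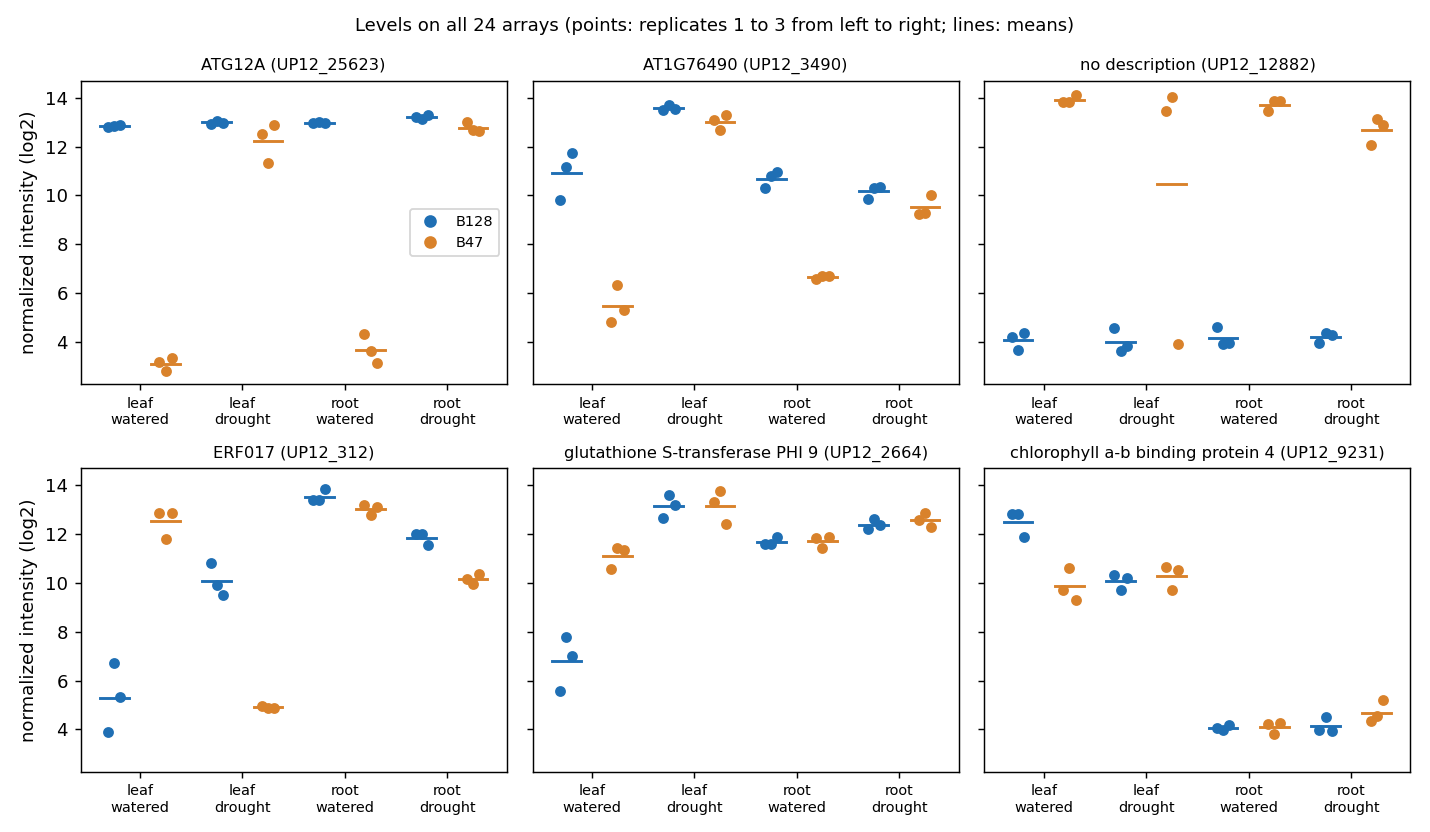
Normalized intensity (log2, vertical axis) of 6 unigenes on all 24 arrays, by organ and treatment, with blue points for B128 and orange points for B47, replicates 1 to 3 from left to right and means as horizontal lines. ATG12A and the AT1G76490 match are low in well-watered B47 and high on all drought-stressed B47 arrays. UP12_12882 is high on every B47 array but replicate 3 of the drought-stressed leaves.

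ATG12A was near the floor in watered B47 and bright in droughted B47. It was at 4.33, 3.62 and 3.13 in well-watered B47 roots against 12.98, 13.0 and 12.97 in B128 roots, yet at 12.51, 11.33 and 12.87 in drought-stressed B47 leaves, against 12.94, 13.05 and 12.98 in B128. The line difference under drought was 0.76 ± 0.29 (adjusted p = 0.14), and it differed from that of irrigated leaves by 8.96 ± 0.41 (adjusted p = 8.3e-11). The AT1G76490 match gave the same picture, with 13.08, 12.67 and 13.31 in drought-stressed B47 leaves and 6.57, 6.72 and 6.72 in well-watered B47 roots. Altogether 24 unigenes were higher in B128 in both organs when watered and called in neither organ under drought, 4 of them with a description.

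To see how common this was, the 73 unigenes were taken that differed between the lines by at least 4 in both well-watered organs in the same direction, 42 higher in B128 and 31 in B47. Each drought array was then placed by the midpoint of the well-watered levels of the lines. The 3 drought-stressed B128 leaf arrays fell on the B128 side at all 73 unigenes, and the B128 root arrays fell on the B47 side at 2 to 3. The irrigated B47 leaf arrays of replicates 1 and 3 fell on the B128 side at 2 unigenes each. The drought-stressed B47 leaf arrays fell on the B128 side at 6, 7 and 17 unigenes, and the B47 root arrays at 6, 5 and 5. ATG12A, the AT1G76490 match, UP12_10493 and UP12_24538 were on the B128 side on all 6 drought-stressed B47 arrays.

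The drought-stressed B47 leaf array of replicate 3 stood apart in the opposite sense. At 8 unigenes, all higher in B47 when watered, it alone of the 6 drought-stressed B47 arrays read like B128. UP12_12882 was at 3.9 on it and at 13.47 and 14.05 on its fellow arrays, and UP12_8191 at 5.18 against 13.18 and 13.85. With that array left out, the line difference of UP12_12882 in drought-stressed leaves was -9.74 (adjusted p = 4e-13) in place of -6.46 (adjusted p = 0.012). The comparison of irrigated leaves shares its estimate of spread with that array, and without it 928 unigenes were called higher in B128 and 925 higher in B47. What sets that array apart was not tested.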

How the data were processed

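RNA of 24 samples was hybridised to a custom 1-colour NimbleGen array of cowpea unigenes. The authors deposited intensity values, already background-corrected, quantile-normalized and summarized per unigene by RMA across all arrays. The values were on a linear scale, with a lowest intensity of 4.52, and were taken to log2 here with no pseudocount. No filter was applied, and the 8 control entries took no part in the tests. limma 3.58.1 in R 4.3.3 fitted 1 mean per group to 24 arrays, 8 groups of 3 (16 residual and 2.88 prior degrees of freedom), with Benjamini-Hochberg adjustment over 29471 unigenes. Calls needed both a 2-fold change and a false discovery rate of 0.01 or less. Differences between line differences were contrasts of the same fit and met the same rule. Fits were tested on simulated data.

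Named unigenes were, among called unigenes with no overlap, the 2 largest over all and the 10 largest annotated in each direction and the 3 largest of each list. ABI1 and PP2CA were named in any case. The comparison and the gene lists were chosen with earlier results of these data known. How well the probes match the sequence of each line was not tested. The number of arrays limits the precision.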

Additional observations from a re-analysis of the deposited data

Results flagged for a closer look

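For 47 of the named unigenes the line difference in irrigated leaves differed from that in drought-stressed leaves, and for 44 it differed from that in well-watered roots, each by a test of the difference itself. The values below are the line difference in irrigated leaves minus that in the other material, on the log2 scale, so a negative value means that B47 was higher relative to B128 in irrigated leaves.

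Against drought-stressed leaves, the regulators gave -12.39 for ERF017, -9.43 for the putative calmodulin, -8.38 and -7.61 for the PUB22 unigenes, -7.91 for ZAT11, -7.22 for DREB1D, -6.34 for the zinc finger protein UP12_4209, -4.62 for CML39, -3.2 for ERF5, -2.89 for WRKY17 and -1.48 for the NAC domain protein. Ethylene synthesis gave -4.3, -4.14 and -4.12 for the ACC synthase unigenes. Protective and dehydration-associated proteins gave -7.04 for UP12_28940, -5.96 for UP12_8266, -2.6 for SAG21 and -1.99 for UP12_1409. Glutathione transferases PHI 9 gave -4.3, -4.22 and -3.89, and chaperone genes gave -4.97 for dnaJ 20, -3.19 for UP12_396 and -2.36 for heat shock factor A3. The HS1 PRO-1 2-like pair gave -4.68 and -3.93, the EXORDIUM pair -4.92 and -5.45, and phosphatases 2C 25 and 2 gave -2.97 and -2.77. Of the rest, GRAM domain protein UP12_3172 gave -6.44, dicarboxylate carrier 2 gave -6.0, IAA16 gave -1.93 and cytochrome P450 UP12_2147 gave -1.87.

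In the other direction, against drought-stressed leaves, ATG12A gave 8.96, lipid-transfer protein 4 gave 8.47, the AT1G76490 match 4.86, the alcohol dehydrogenase pair 3.4 and 3.28, pectinesterase UP12_15003 3.02 and the heavy-metal-associated protein 2.8. Antenna genes gave 2.85 for UP12_9231, 2.41 for UP12_8990 and 2.32 for UP12_24012. CRE1b gave 2.55, SAUR UP12_19038 gave 2.09 and the caryophyllene synthase 1.73.

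Against well-watered roots, the regulators gave -7.73 for ERF017, -5.97 and -5.2 for PUB22, -5.93 for CML39, -5.77 for the putative calmodulin, -5.67 for DREB1D, -5.25 for ZAT11, -5.0 for UP12_4209, -2.22 for ERF5, -1.92 for WRKY17 and -1.55 for the NAC domain protein. ACC synthases gave -3.22, -3.17 and -2.93, glutathione transferases PHI 9 gave -4.29, -4.09 and -3.74, and chaperone genes gave -4.52, -3.31 and -2.19. The EXORDIUM pair gave -4.58 and -3.64, the HS1 PRO-1 2-like pair -3.93 and -3.72, NDR1/HIN1-like 25 gave -3.38, and phosphatases 2C 25 and 2 gave -3.31 and -2.95. Of the rest, dicarboxylate carrier 2 gave -4.74, UP12_28940 gave -4.27, UP12_3172 gave -4.1, UP12_8266 gave -3.51, 3-ketoacyl-CoA synthase 11 gave -2.25, UP12_2147 gave -2.21, UP12_1409 gave -2.13 and the nitrate transporter pair -1.87 and -1.65. In the other direction the caryophyllene synthase gave 4.39, the alcohol dehydrogenase pair 3.24 and 3.14, the expansin 3.21, pectinesterase UP12_15003 2.68, antenna genes UP12_9231 and UP12_24012 gave 2.67 and 1.81, and CRE1b 2.56.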

How the results depend on the processing

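None of the 71 named line differences changed sign under any alternative that was run. Of these 71, the number that no longer gave the same call was 43 with the fit on the 6 compared arrays alone, 64 with an unmoderated model on those arrays, 31 with a test against a fold change of 2, 14 with quantile normalization within leaf arrays, 12 with the 12 leaf arrays, 10 with array weights, 5 with equal yeast controls, 3 with a pseudocount of 32, 2 with equal array medians, 0 with an intensity trend and 6 to 12 when 1 array was left out. Calls lost on leaving out 1 array, beside those given above, were SAG21 (UP12_376, without B128 replicate 1), UP12_1409 (without B47 replicate 1), UP12_7902 (without replicate 2 of either line), and UP12_28595, UP12_20374, UP12_3377 and UP12_23262, which were lost on leaving out any of at least 4 arrays. Without the 25% of unigenes of lowest level, 53 of the 71 were tested and all kept their calls.

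The counts higher in B128 and in B47 were 243 and 278 on the 6 arrays, 31 and 32 with the unmoderated model and 176 and 255 against a fold change of 2, a stricter test. Without the lowest 25% of unigenes the count for B128 was 570. With 1 array left out they were 736 to 1086 and 715 to 1054.

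The unigenes whose line difference in irrigated leaves differed from that in well-watered roots numbered 2217 at a false discovery rate of 0.05, 170 against a fold change of 2 and 795 to 1347 with 1 array left out. Those differing between irrigated and droughted leaves numbered 1460, 184 and 456 to 921, with 456 lacking replicate 3 of irrigated B47 leaves, and 1486 with array weights, whose estimation stopped before convergence. Against a fold change of 2 the unigenes of opposite call in the 2 leaf comparisons numbered 16, and 75 to 101 with 1 array left out.

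The share of B128 unigenes called the same way was 46.6% in drought-stressed leaves, 43.2% in well-watered roots and 40.9% in drought-stressed roots against a fold change of 2, and that of B47 unigenes in well-watered roots was 22.4%. With array weights the B128 shares in roots were 22.8% and 22.4%. With 1 array left out, the B128 shares were 18.8% to 28.9%, 13.4% to 20.7% and 12.5% to 18.8%, and those of B47 were 17.9% to 24.2%, 13.0% to 20.1% and 13.4% to 21.4%. The cause of these changes was not tested. The fit without B47 replicate 3 of drought-stressed leaves was chosen after seeing the data.

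Deviations of same-numbered arrays from their group means correlated at 0.22, 0.29 and -0.02, so the numbers were not taken to pair the samples. With the replicate number as a block the counts were 945 and 923, the 2 differences of line differences gave 1058 and 711, 89 unigenes had opposite calls, and 2 of the 71 named calls were lost.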
